A study of Mus musculus with 6 samples.

Results

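The 10 genes described here encode MyD88, the IRAK kinases with an IRAK1-binding protein, and 4 TRAF proteins: Myd88, Irak1, Irak2, Irak3, Irak4, Irak1bp1, Traf1, Traf4, Traf5 and Traf6. They were chosen by name, and all 10 were found by Ensembl identifier among the 26128 genes of the deposited table. The data come from double negative T (DNT) cells, which are T cells without CD4 or CD8 on their surface. The cells were made in culture out of CD4+ T cells from adult C57BL/6 mice, using dendritic cells of DBA/2 mice and IL-2, then sorted as CD3+NK1.1-CD4-CD8- cells, and restimulated for 48 h with anti-CD3/CD28 beads. The control group had the beads alone, and the IL-33 group had the beads and IL-33 at 50 ng/ml, with 3 libraries in each. Nothing in the labels or the methods ties the replicates to separate mice or cultures, so the p-values measure only the spread between these libraries, which may be technical.

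IL-33 is a cytokine of the interleukin-1 family. Its receptor, formed by ST2 and the IL-1 receptor accessory protein, takes up the adaptor MyD88 through TIR domains, and MyD88 gathers IRAK4 with IRAK1 or IRAK2 into a complex. The IRAK kinases then engage TRAF6, a ubiquitin ligase whose chains bring in the kinase TAK1 and the IKK complex, which free NF-κB, and the MAP kinases. Among the other TRAF proteins here, TRAF1 and TRAF5 serve mainly the receptors of the TNF family, and IRAK3, also called IRAK-M, restrains the pathway. These steps are run by proteins and their modification, whereas the values here are levels of RNA.

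The libraries held 20256342 to 22336050 counts, and 3 counts, taken as the limit of detection, came to 0.135 to 0.148 CPM (counts scaled to a common library size). This limit covers counting error only. Values given with ± are the mean and SD of the 3 libraries of a group. All 11 T cell markers were present, with Cd3e at 300 ± 12.9 CPM in control and 305 ± 7.49 CPM in IL-33 libraries. By edgeR's adjusted p 3 of the 11 were lower (Lck, Cd2 and Cd5) and 1 higher (Cd3g) with IL-33, beside 13.9% and 13.6% of all genes tested. Of the 4 genes behind the sort, Cd4 was at 0.225 to 1.08 CPM, but Cd8a RNA stood at 545 ± 13.6 CPM in control and 400 ± 9.15 CPM in IL-33 libraries. Klrb1c, the gene of NK1.1, was at 33.5 ± 2.57 and 25.6 ± 1.16 CPM, and Cd8b1 moved the other way, from 9.69 ± 1.65 to 16.3 ± 2.07 CPM. Of 13 dendritic and myeloid markers 12 had a count, Clec9a being at 0, and their summed level was 102 to 106 CPM in control and 80.2 to 86.7 CPM in IL-33 libraries. That fall lay in Itgax, at 54.6 ± 2.07 and 25.98 ± 1.59 CPM, and without it the sum was 46.1 to 52.2 CPM in control and 55.5 to 58.9 CPM in IL-33 libraries, a split made after the values were seen. Cd74 was also lower, whereas Itgam and H2-Ab1 were higher with IL-33. All 6 mast cell and basophil markers had a count in some library, with sums of 38.2 to 41.0 CPM in control and 26.6 to 31.5 CPM in IL-33 libraries. Most of these sums was Cma1, Cpa3 and Mcpt8, and Ms4a2 and Tpsb2 were at 0 in every IL-33 library. The 3 NK cell markers summed to 381 to 384 CPM and 357 to 376 CPM, most of it Eomes. Among them Ncr1 was only at 0 to 0.225 CPM over all libraries. Of 5 B cell markers 3 had a count, Ms4a1 and Pax5 being at 0, and summed to 4.79 to 6.35 CPM over all libraries. The part of any of these shifts in the results that follow was not tested. In such bulk samples, fewer cells of a type and less RNA per cell cannot be told apart.

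All 10 genes passed the filter on low counts. In edgeR's quasi-likelihood test, with p-values adjusted over all 14671 genes tested, 5 of the 10 had an adjusted p under 0.05, and 27.5% of all genes tested did. Irak2, Traf4 and Traf1 rose with IL-33, and Irak1 and Irak3 fell. The background in 1 direction was 13.6% of genes higher and 13.9% lower. A fold change of at least 1.5, the second threshold of the study, was met together with the first by Irak3 alone, against 4.87% of all genes tested (2.47% higher and 2.39% lower). In 4 of the 10 genes the libraries with IL-33 did not overlap those without it, close to the 38.9% of all genes tested. The median log2 fold change of the 10 genes was 0.055, and that of all genes tested was -6.3e-04.

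**Figure D1:**
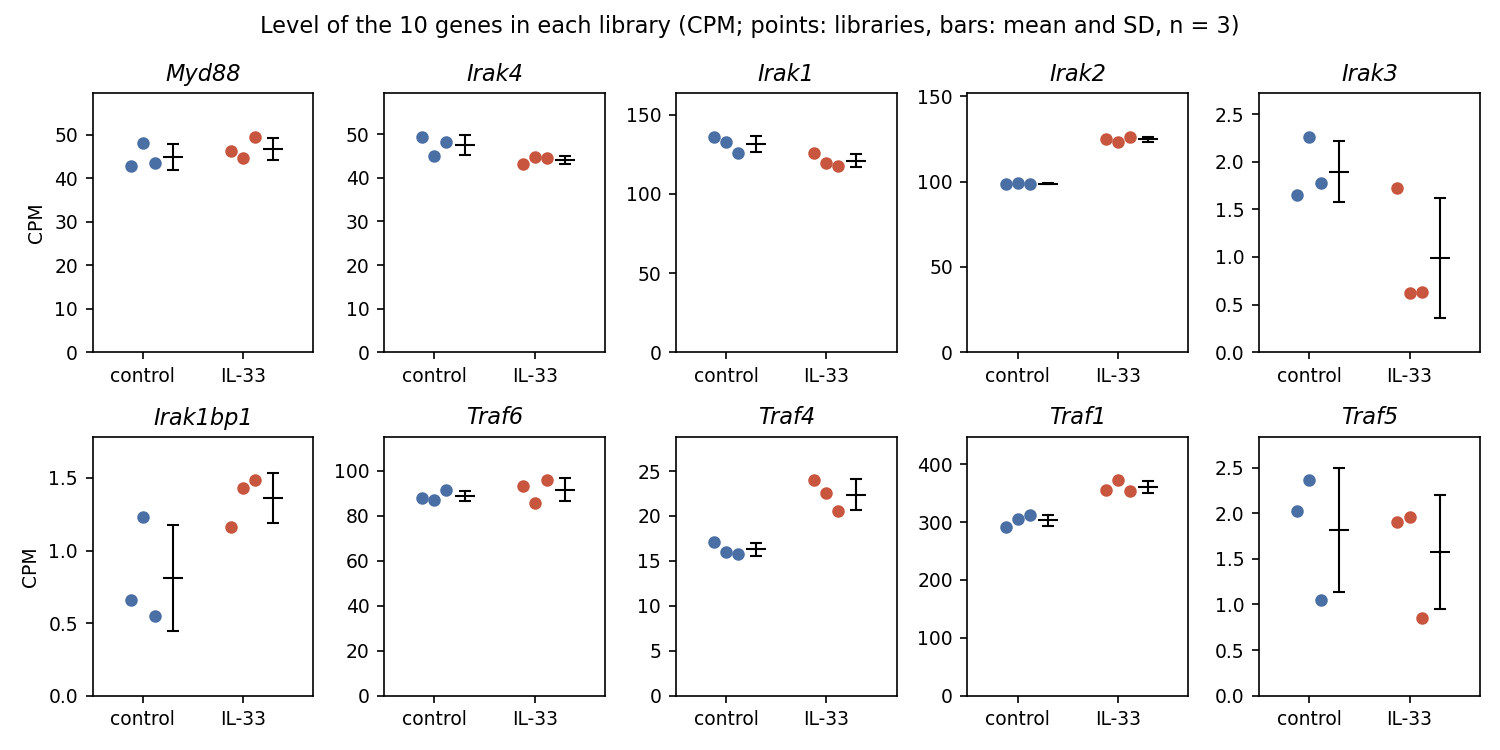
Level of each of the 10 genes in CPM (linear axis from 0, a separate scale for each gene) in the 3 control libraries (blue) and the 3 IL-33 libraries (red), with the mean and SD of each group in black. Irak2, Traf4 and Traf1 lay higher in every IL-33 library than in every control library, and Irak3, Irak1bp1 and Traf5 were at most at 2.36 CPM.

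Myd88, the adaptor that joins the receptor to the IRAK kinases, was read at 42.9, 48.2 and 43.4 CPM without IL-33 and at 46.2, 44.6 and 49.6 CPM with it. The groups overlapped, since control replicate 2 lay above 2 of the libraries with IL-33. Its change on the log2 scale was 0.062 (95% interval -0.055 to 0.18, adjusted p = 0.483 in edgeR), and the interval leaves room for no rise beyond 1.13 times. Myd88 (ENSMUSG00000032508, chromosome 9 from 119335934 to 119341411, minus strand, in GENCODE M21 on GRCm38, the annotation of all positions here) shares 290 exon bases with Acaa1a on the other strand. Whether counting used the strand is not stated, so reads of Acaa1a, at 57.6 ± 1.65 CPM without and 59.5 ± 3.05 CPM with IL-33, could be among those of Myd88.

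Irak4, the kinase that acts first in the complex, was at 49.5, 45.1 and 48.3 CPM without IL-33 and at 43.1, 44.8 and 44.6 CPM with it. All 3 libraries with IL-33 were the lower ones, though control replicate 2 was above them by a narrow margin. The log2 fold change of -0.11 (95% interval -0.22 to 0.0068) did not pass the test, with an adjusted p of 0.163 in edgeR. Irak4 (ENSMUSG00000059883, chromosome 15 from 94543643 to 94581815) shares 395 exon bases with Twf1 on the other strand and is uncertain to that extent.

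Irak1, the kinase that IRAK4 phosphorylates and that carries TRAF6 onward, fell by a small amount. Its levels were 136, 133 and 126 CPM without IL-33 and 126, 119 and 118 CPM with it. The groups touched, since IL-33 replicate 1 and control replicate 3 were at nearly the same level. On the log2 scale the change was -0.12 (95% interval -0.20 to -0.042, adjusted p = 0.0138 in edgeR), a fold of 0.920. With 1 library left out the log2 fold change stayed between -0.15 and -0.095, but the call was lost in 4 of the 6 cases. In edgeR the adjusted p was then 0.0928 without control replicate 1, 0.0519 without control replicate 2, 0.0611 without IL-33 replicate 2 and 0.0801 without IL-33 replicate 3. Irak1 (ENSMUSG00000031392) lies on chromosome X from 74013914 to 74023918.

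Irak2, the second kinase of the complex, known for sustaining the response after IRAK1, had the lowest adjusted p of the 10 genes. It stood at 98.8, 99.2 and 98.4 CPM without IL-33 and at 125, 123 and 126 CPM with it. The groups were far apart beside the spread within each. The rise was 1.26-fold, a log2 fold change of 0.34 (95% interval 0.26 to 0.42, adjusted p = 6.0e-12 in edgeR). With any 1 library left out the log2 fold change stayed between 0.33 and 0.35. By the size of its change Irak2 ranked 3311 of the 14671 genes tested, where the median absolute log2 fold change was 0.15. Irak2 (ENSMUSG00000060477, chromosome 6 from 113638467 to 113695026) shares 196 exon bases with Gm43963 on the other strand, which had 333 counts in all libraries together against 14347 for Irak2.

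Irak3, whose protein blocks the release of IRAK kinases from the receptor and is best known from monocytes and macrophages, was a gene of low counts. It had 35, 46 and 39 counts in the control libraries against 37, 13 and 14 in the IL-33 libraries, or 1.65, 2.26 and 1.78 CPM against 1.72, 0.620 and 0.630 CPM. IL-33 replicates 2 and 3 were low, while IL-33 replicate 1 was within the range of the control libraries. Irak3 had a log2 fold change of -0.93 (95% interval -1.59 to -0.28, adjusted p = 0.0243 in edgeR). In DESeq2 the adjusted p was 0.109. With IL-33 replicate 1 left out the change was -1.59 on the log2 scale, while the adjusted p in edgeR was 0.131 without control replicate 2, 0.146 without IL-33 replicate 2 and 0.143 without IL-33 replicate 3. The dendritic and myeloid markers moved in both directions with IL-33, and their part in the fall of Irak3 was not tested. Itgax, set apart after the values were seen, was at 25.5, 27.8 and 24.7 CPM in IL-33 replicates 1, 2 and 3. The rest of the list summed to 55.5, 58.9 and 55.5 CPM in the same order. In IL-33 replicate 1 most of that sum was H2-Ab1 and Xcr1, at 31.5 and 12.3 CPM. Whether any such cells bear on the level of Irak3 in that library was not tested. Irak3 (ENSMUSG00000020227, chromosome 10 from 120141648 to 120202130) shares 192 exon bases with Tmbim4 on the other strand, a gene with 8453 counts in all libraries together against 184 for Irak3, so its level is uncertain. Tmbim4 was higher with IL-33, with a log2 fold change of 0.16 (adjusted p = 0.00906 in edgeR).

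Irak1bp1, whose protein binds IRAK1 and acts with the NF-κB subunit p65, was also scarce. It had 14, 25 and 12 counts in the control libraries against 25, 30 and 33 in the IL-33 libraries. Control replicate 2 was as high as IL-33 replicate 1 in counts, and the groups overlapped in CPM at 0.547 to 1.23 against 1.16 to 1.49. The log2 fold change of 0.75 (95% interval 0.031 to 1.47) had an adjusted p of 0.116 in edgeR and did not pass the test. Without control replicate 2 it was 1.17 with an adjusted p of 0.0406, and without control replicate 3 it was 0.53 with an adjusted p of 0.370 in the same test. A change of this gene was thus not settled at this depth. It lies on chromosome 9 from 82829540 to 82847687 (ENSMUSG00000032251).

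**Figure D2:**
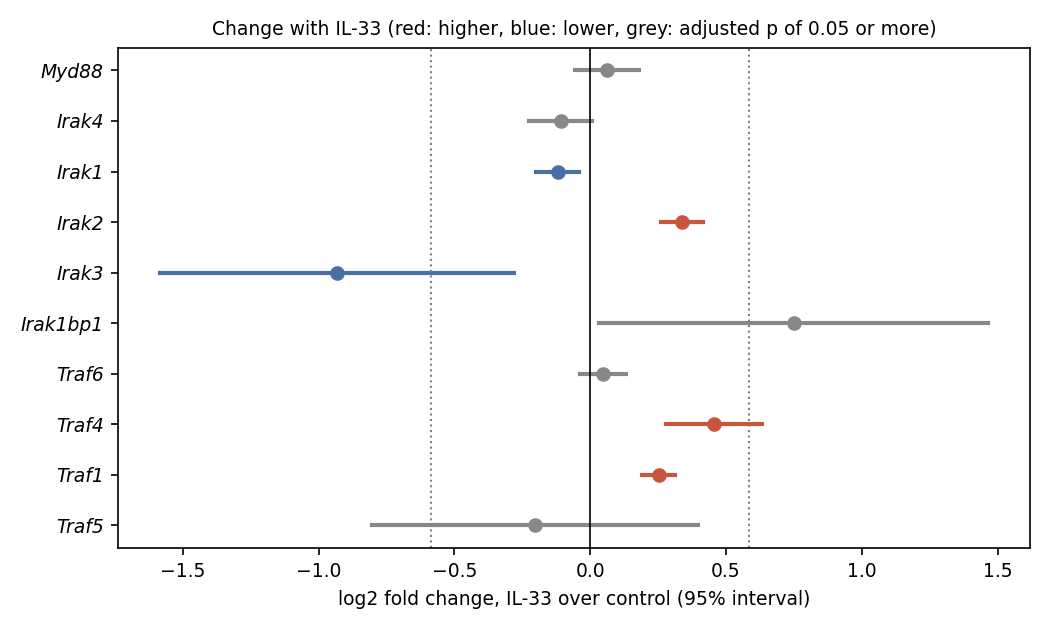
Log2 fold change of each of the 10 genes, IL-33 over control, with its 95% interval from edgeR (red, higher with an adjusted p under 0.05; blue, lower with an adjusted p under 0.05; grey, other genes; dotted lines, a fold change of 1.5 in either direction). Irak2, Traf4 and Traf1 had intervals above 0, as had Irak1bp1, which did not pass the adjusted test, those of Irak1 and Irak3 lay below 0, and the intervals of Irak3, Irak1bp1 and Traf5 were the widest.

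Among the TRAF genes, Traf6, the ubiquitin ligase of the IL-33 pathway itself, was at 87.7, 87.0 and 91.2 CPM without IL-33 and at 93.3, 85.7 and 95.8 CPM with it. The groups overlapped, with IL-33 replicate 2 the lowest of all libraries. For Traf6 the log2 fold change was 0.047 (95% interval -0.038 to 0.13, adjusted p = 0.461 in edgeR), so that a rise beyond 1.10 times lay outside the interval. Traf6 (ENSMUSG00000027164) lies on chromosome 2 from 101678429 to 101701669 and overlaps no other gene of the annotation.

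Traf4, a TRAF protein known mainly from development and epithelial cells, had the largest change of the 3 genes that rose. Its levels were 17.1, 16.0 and 15.8 CPM without IL-33 and 24.0, 22.6 and 20.6 CPM with it. No library with IL-33 came near the control range. The rise was 1.37-fold, a log2 fold change of 0.46 (95% interval 0.28 to 0.63, adjusted p = 1.8e-05 in edgeR), and with 1 library left out it lay between 0.41 and 0.52. The upper end of the interval was above the fold change threshold of 1.5 (0.585 on the log2 scale) and the value itself below it. Traf4 (ENSMUSG00000017386, chromosome 11 from 78158499 to 78165589) overlaps no other annotated gene.

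Traf1, which lacks the RING domain of the other TRAF proteins, joins TRAF2 at receptors of the TNF family and is itself a known target of NF-κB, was the most abundant of the 10 genes. It rose from 292, 305 and 312 CPM to 356, 372 and 354 CPM. The lowest library with IL-33 was above the highest without it. Its log2 fold change was 0.25 (95% interval 0.19 to 0.31, adjusted p = 2.7e-11 in edgeR), a rise of 1.19-fold, and ran from 0.23 to 0.27 with 1 library left out. Traf1 (ENSMUSG00000026875) lies on chromosome 2 from 34941750 to 34961772, with no other gene over it.

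Traf5, which serves TNF family receptors of lymphocytes, was near the lower end of the tested genes, with 43, 48 and 23 counts in the control libraries against 41, 41 and 19 in the IL-33 libraries. Replicate 3 of each group was low and the groups overlapped. The log2 fold change of -0.20 (95% interval -0.80 to 0.40, adjusted p = 0.671 in edgeR) turned to 0.030 when control replicate 2 was left out and to 0.10 when IL-33 replicate 3 was left out. The interval spans folds from 0.573 to 1.32, so that neither a rise nor a fall of moderate size could be seen at this depth. Traf5 (ENSMUSG00000026637) is on chromosome 1 from 191997205 to 192092559 and shares 205 exon bases with Gm26879 on the other strand, which had no counts here.

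**Figure D3:**
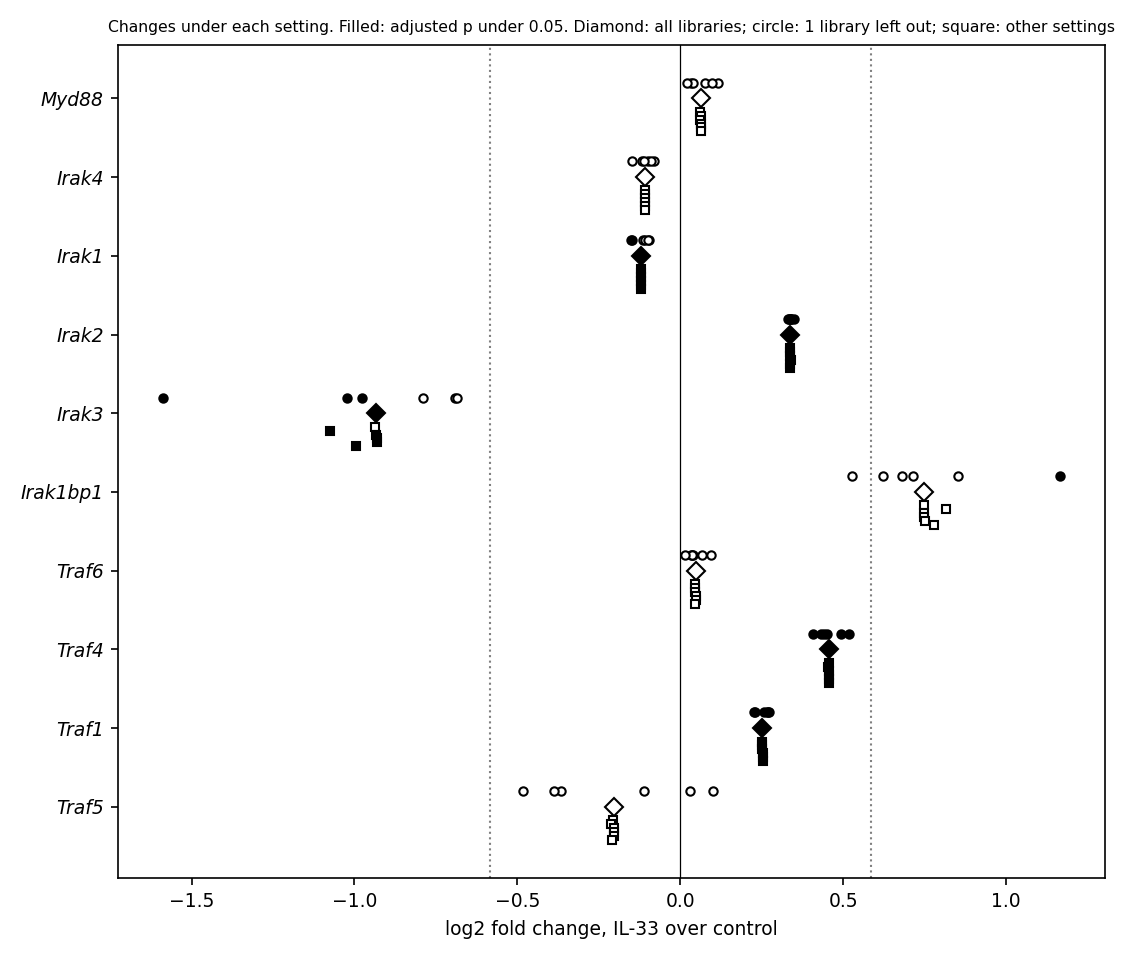
Log2 fold change of each gene, IL-33 over control, with all libraries (diamonds), with 1 library left out (circles) and under 6 other settings of the test, scaling, filter and block (squares), filled where the adjusted p was under 0.05 (dotted lines, a fold change of 1.5). The points of Irak2, Traf4 and Traf1 were all filled and close together, while those of Irak3 spread from -1.59 to -0.68 and those of Traf5 lay on both sides of 0.

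Levels of different genes can be compared only per length, so the counts were also divided by the joined exon length of each gene and scaled to a common sum (TPM, the usual level per transcript length). On this scale the control libraries ordered the genes as Traf1 at 105 ± 1.98 TPM, Irak1 at 85.0 ± 4.54, Irak2 at 68.2 ± 1.08, Myd88 at 53.1 ± 3.35, Traf6 at 34.3 ± 0.639, Irak4 at 28.9 ± 1.60 TPM and Traf4 at 15.1 ± 0.893 TPM. With these lengths the neighbours stood apart by more than their SDs. Irak3 at 1.57 ± 0.262, Traf5 at 1.21 ± 0.462 and Irak1bp1 at 1.15 ± 0.515 TPM in the control libraries came last, and their order was within their spread. With IL-33 the order of Irak1 and Irak2 was the other way round, with Irak2 at 85.1 ± 0.587 TPM and Irak1 at 77.2 ± 3.11 TPM. The level of Traf1 depended on the length taken for it, since its joined exons measure 8819 bases and its longest transcript 3436. With the longest transcripts Traf1 was at 211 ± 4.31 TPM in the control libraries, and Irak1 and Irak2 kept the same exchange of order. Traf6 at 34.4 ± 0.683 and Irak4 at 33.2 ± 1.83 TPM were then within their spread in the control libraries, and Traf5 was at 2.09 ± 0.793 TPM.

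The make-up of the IRAK transcripts differed between the groups. Irak2 gave 36.4, 37.3 and 37.7% of the summed TPM of Irak1, Irak2, Irak3 and Irak4 without IL-33 and 44.2, 44.8 and 45.7% with it. The share of Irak1 was 46.9, 46.7 and 45.2% in the control libraries against 41.7, 40.6 and 39.9% in the IL-33 libraries. Irak4 went from 15.7 ± 0.724 to 14.0 ± 0.481% and Irak3 was at most 1.02% of the sum in any library. In plain counts, which need no length, there were 0.752 ± 0.0285 counts of Irak2 for each count of Irak1 without IL-33 and 1.03 ± 0.0405 with it. None of the libraries overlapped between groups in the shares of Irak1, Irak2 and Irak4. In level, 38.9% of all genes tested had groups that did not overlap. The shares are parts of the same sum, so a larger part for Irak2 leaves less for the others. Irak4 did not pass the test of its own level (adjusted p = 0.163 in edgeR). With 3 libraries against 3 an exact two-sided permutation test cannot give a p below 0.1, so these shares are given without a test.

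Among Traf1, Traf4, Traf5 and Traf6, the share of Traf4 was 10.4, 9.54 and 9.23% in the control libraries against 12.2, 11.4 and 10.6% in the IL-33 libraries, and that of Traf6 went from 22.1 ± 0.356 to 19.5 ± 1.37%. Traf1 made up 67.4 ± 0.900% and 68.5 ± 1.29%, with overlapping groups. Since Traf6 did not pass the test of its own level, its smaller share stands beside the rises of Traf1 and Traf4 in the same sum. With the longest transcripts the share of Traf1 in the control libraries was 81.3 ± 0.635% and that of Traf4 4.67 ± 0.329%, and Traf4 was again higher and Traf6 lower in every library with IL-33.

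**Figure D4:**
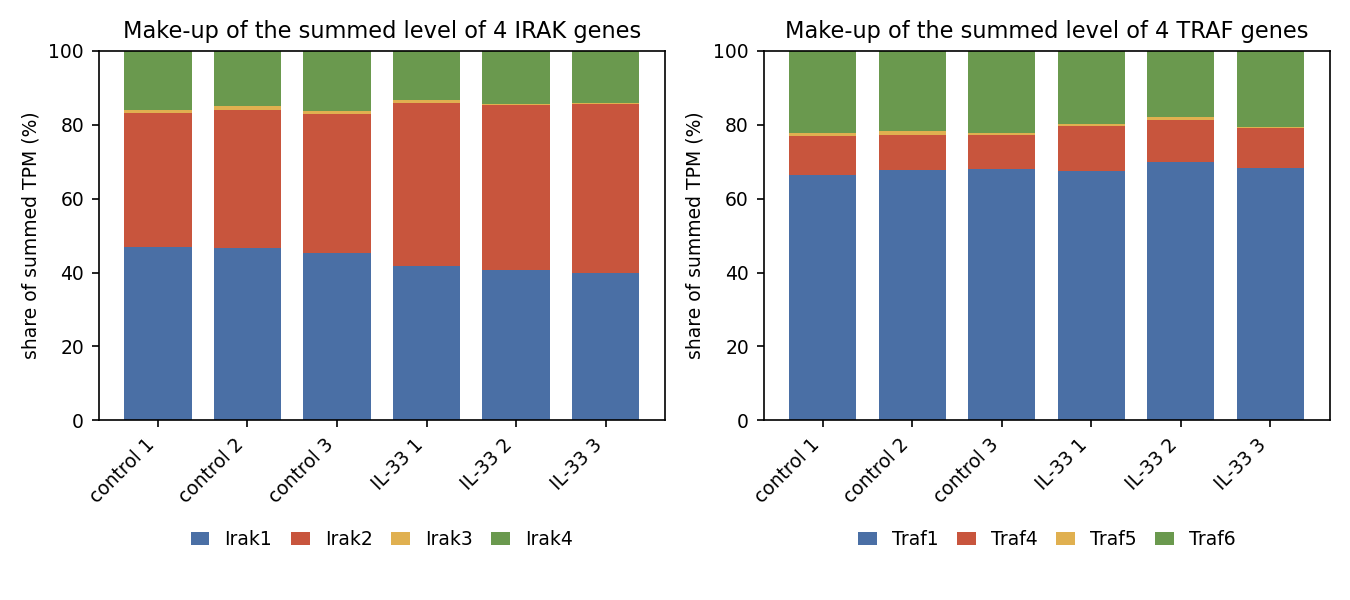
Share of each gene in the summed TPM of the 4 IRAK genes (left) and of the 4 TRAF genes (right), in percent, for each of the 3 control and 3 IL-33 libraries. The Irak2 part grows from 37.2 to 44.9% on average and the Irak1 part shrinks from 46.3 to 40.7%, while Irak3 and Traf5 are thin bands.

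The rest of the pathway was described by 5 lists of 59 genes in all, of which 56 could be tested. Of these 4 were higher and 10 lower with an adjusted p under 0.05 in edgeR, against 13.6% and 13.9% of all genes tested (27.5% in either direction). The median log2 fold change of the 56 genes was -0.0035. Ticam2, Peli2 and Peli3 had too few counts to be tested. Only Il1rl1 was past both thresholds.

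Of the 13 relatives of the TRAF genes 4 were lower and 1 was higher, and 8 did not pass the test, where 13.9% of all genes tested were lower and 13.6% higher. Traf2, the partner of TRAF1 at TNF family receptors, was at 53.0, 56.1 and 56.7 CPM without IL-33 and at 45.3, 47.8 and 48.6 CPM with it. Traf3, which restrains the noncanonical branch of NF-κB, was at 97.5, 97.2 and 91.8 CPM without IL-33 and at 82.1, 83.7 and 81.4 CPM with it. Neither gene's groups overlapped, as in 38.9% of all genes tested, and both genes were named because they had passed the test. The log2 fold changes were -0.23 (standard error 0.055, adjusted p = 5.9e-04 in edgeR) for Traf2 and -0.21 (standard error 0.042, adjusted p = 2.3e-05 in edgeR) for Traf3. There were 5.47 ± 0.0435 counts of Traf1 for each count of Traf2 without IL-33 and 7.64 ± 0.313 with it, a pair set side by side after the values had been seen. Traip, a ubiquitin ligase of DNA replication that carries the TRAF name, fell by 0.51 on the log2 scale (adjusted p = 1.0e-04 in edgeR). Traf3ip1, a protein of cilia, had a log2 fold change of 0.34 with an adjusted p of 0.0382 in edgeR, and its call was lost in DESeq2 (adjusted p = 0.119), with no filter on low counts (0.0581) and without any 1 of 5 libraries, with an adjusted p of 0.308 and 0.0517 without control replicates 1 and 2, and of 0.0930, 0.0805 and 0.0596 without IL-33 replicates 1, 2 and 3.

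At the receptor, Il1rl1, the gene of ST2, was at 14.0, 18.5 and 15.5 CPM without IL-33 and at 9.58, 9.44 and 10.2 CPM with it, a log2 fold change of -0.71 (adjusted p = 9.0e-08 in edgeR). Its partner chain Il1rap had a log2 fold change of 0.056 (95% interval -0.14 to 0.25, adjusted p = 0.730 in edgeR), and Sigirr, an inhibitory receptor, one of -0.20 (95% interval -0.28 to -0.13). Of the 7 receptor and TIR adaptor genes tested, Il1rl1 and Sigirr fell and Ticam1, the adaptor TRIF of Toll-like receptors, rose by 0.22 on the log2 scale (adjusted p = 0.00663 in edgeR). Of all genes tested 13.9% were lower and 13.6% higher.

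Below TRAF6, 1 of 16 tested genes of the ubiquitin, TAK1 and IKK steps was higher and 2 were lower. Of all genes tested 13.6% were higher and 13.9% lower. The other 13 did not pass the test, TAK1 itself (Map3k7, log2 fold change 0.019) and its partners Tab1, Tab2 and Tab3 among them. Sqstm1, the gene of the scaffold p62 that binds TRAF6, was at 756 ± 24.1 CPM in control and 853 ± 25.7 CPM in IL-33 libraries and rose by 0.17 on the log2 scale (adjusted p = 2.1e-08 in edgeR). Rbck1, the HOIL-1 subunit of the linear ubiquitin ligase, fell by 0.20 on the log2 scale (adjusted p = 2.4e-05 in edgeR). Ikbkb, the kinase IKKβ, had a log2 fold change of -0.096 with an adjusted p of 0.0414 in edgeR. That call was lost in DESeq2 (adjusted p = 0.0652), with no filter on low counts (0.0737) and without control replicate 1 or 2 or any 1 IL-33 replicate, with adjusted p of 0.110, 0.113, 0.217, 0.0504 and 0.0526 in that order. Of 9 MAP kinase genes 2 were lower and 0 higher, beside the same 13.9% and 13.6% of all genes tested. Map3k8, the kinase TPL2, had a log2 fold change of -0.27 (adjusted p = 2.6e-07 in edgeR). Mapk11, a p38 kinase, had one of -0.49 (adjusted p = 0.00461 in edgeR).

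Of 11 deubiquitinases and other brakes on the pathway 1 passed the test, where 27.5% of all genes tested did. Rnf11, a partner of the A20 enzyme, had 39.0 ± 0.604 CPM in control and 44.3 ± 2.39 CPM in IL-33 libraries, with a log2 fold change of 0.18 (adjusted p = 0.0161 in edgeR). Its adjusted p was 0.0538 in DESeq2, and in edgeR 0.0546 without IL-33 replicate 2 and 0.0909 without IL-33 replicate 3. Tnfaip3, the gene of A20, which removes ubiquitin from TRAF6 and is a target of NF-κB, was at 345 ± 3.27 CPM in control and 348 ± 11.0 CPM in IL-33 libraries, with a log2 fold change of 0.012 (95% interval -0.048 to 0.072). Tnfaip3, Map3k7 and the Tab genes lie outside the naming rule and were picked after their values were seen.

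**Figure D5:**
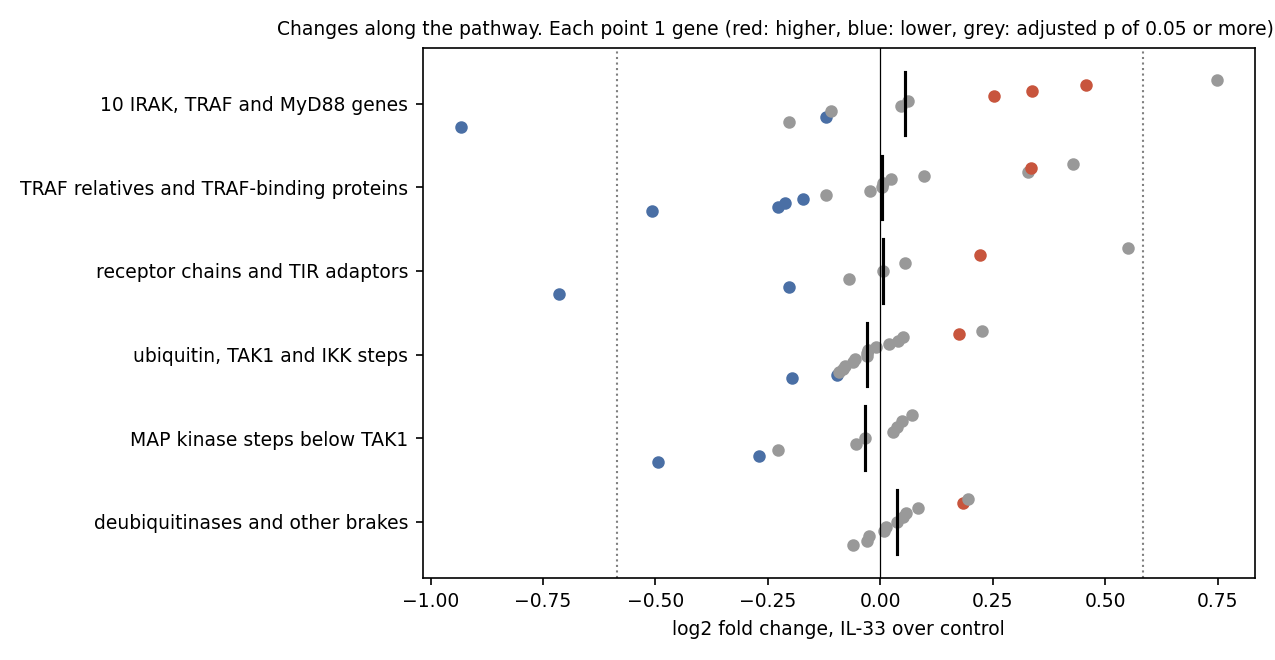
Log2 fold change, IL-33 over control, of the 10 genes (top row) and of the tested genes of 5 lists of the pathway, 1 point for each gene (red, higher with an adjusted p under 0.05 in edgeR; blue, lower; grey, other genes), with the median of each row as a black bar and dotted lines at a fold change of 1.5. The medians of the 5 lists lie between -0.033 and 0.036, and the lowest point of the receptor row is Il1rl1 at -0.71.

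The promoters of the 5 genes that passed the test are shown because NF-κB and AP-1 are the factors at the end of this pathway. RefSeq windows on GRCm38.p6 from 250 bases before to 50 bases after a start site were found for all 10 genes, 12 windows in all. They were searched on both strands for GGGRNNYYCC, a broad form of the NF-κB consensus (here the κB motif), and for the AP-1 motif TGANTCA. In these patterns R is A or G, Y is C or T, and N is any base. The κB motif was in 8.46% and the AP-1 motif in 7.81% of all 32851 promoter windows of the same length. The 3 genes that rose, Irak2, Traf4 and Traf1, had no match to either motif in these windows, so their sequences are in lower case throughout. Irak1, which fell, had the κB match of its window in capitals, with its first base 18 bases before the start site, and the second, nearly identical window of Irak1 held the same match. Irak3, which also fell, has a pair of windows that do not overlap, neither with a match.
Irak2, chr6:113638217-113638516, plus strand: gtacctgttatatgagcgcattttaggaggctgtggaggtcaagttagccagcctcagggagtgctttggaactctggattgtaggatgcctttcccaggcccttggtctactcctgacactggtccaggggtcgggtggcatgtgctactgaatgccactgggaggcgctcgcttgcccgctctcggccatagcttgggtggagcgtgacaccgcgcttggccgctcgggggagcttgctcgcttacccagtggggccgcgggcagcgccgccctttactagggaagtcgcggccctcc
Traf4, chr11:78165501-78165800, minus strand: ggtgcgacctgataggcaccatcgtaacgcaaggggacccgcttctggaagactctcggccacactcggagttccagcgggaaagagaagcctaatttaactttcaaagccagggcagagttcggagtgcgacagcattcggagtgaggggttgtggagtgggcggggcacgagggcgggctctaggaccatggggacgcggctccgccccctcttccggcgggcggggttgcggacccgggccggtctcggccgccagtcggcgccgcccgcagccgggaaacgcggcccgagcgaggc
Traf1, chr2:34961723-34962022, minus strand: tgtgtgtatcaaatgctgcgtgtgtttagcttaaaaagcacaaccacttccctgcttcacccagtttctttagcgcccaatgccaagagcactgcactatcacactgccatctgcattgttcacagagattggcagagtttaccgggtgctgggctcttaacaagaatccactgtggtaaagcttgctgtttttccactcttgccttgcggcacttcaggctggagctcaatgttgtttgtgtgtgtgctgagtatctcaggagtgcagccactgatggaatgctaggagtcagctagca
Irak1, chrX:74023872-74024171, minus strand: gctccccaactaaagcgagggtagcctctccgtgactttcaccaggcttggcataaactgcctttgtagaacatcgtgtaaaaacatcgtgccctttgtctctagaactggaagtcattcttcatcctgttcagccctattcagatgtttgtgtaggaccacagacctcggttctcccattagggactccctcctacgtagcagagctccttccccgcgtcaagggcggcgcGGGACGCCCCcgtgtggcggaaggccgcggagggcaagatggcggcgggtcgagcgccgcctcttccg
Irak3, window 1, chr10:120201548-120201847, minus strand: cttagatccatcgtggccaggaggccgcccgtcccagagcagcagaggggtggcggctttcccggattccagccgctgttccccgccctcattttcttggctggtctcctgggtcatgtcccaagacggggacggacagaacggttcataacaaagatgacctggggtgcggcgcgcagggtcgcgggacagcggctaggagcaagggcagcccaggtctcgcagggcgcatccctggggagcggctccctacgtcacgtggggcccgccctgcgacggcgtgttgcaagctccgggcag
Irak3, window 2, chr10:120202081-120202380, minus strand: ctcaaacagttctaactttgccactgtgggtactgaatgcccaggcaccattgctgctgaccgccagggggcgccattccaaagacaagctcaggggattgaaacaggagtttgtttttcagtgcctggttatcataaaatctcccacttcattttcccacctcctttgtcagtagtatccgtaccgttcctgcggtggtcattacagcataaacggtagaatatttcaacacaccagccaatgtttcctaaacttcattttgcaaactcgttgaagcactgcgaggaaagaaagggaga
The windows of the 3 genes that rose differed in base composition, with a GC content of 68.0% for Traf4, 62.3% for Irak2 and 48.7% for Traf1, around a median of 52.7% over all windows, and the windows of Irak3 had 67.3% and 46.7%. No window of the other 5 genes matched either motif. A match describes letters in a window, and the lack of one says only that they are not within these 300 bases.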

How the data were processed

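RNA of 3 control and 3 IL-33 libraries was sequenced, and samples were grouped by their labels. The authors deposited raw counts per gene for each library and 1 column of signal, a mean over all libraries of counts divided by size factors, which was not used here. The submitters' processing notes name Bowtie 0.12.2 and the build mm8, with no role given. Which program counted the reads, and whether by strand, is not given in the sources used here. Kits named are TruSeq in the labels and NEBNext in the methods. Of 26128 identifiers 26072 matched GENCODE M21 (GRCm38), the source of positions and lengths. No coordinate comes from the deposited table.

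The 10 genes and the lists were chosen with earlier results of these data known. Genes were filtered with filterByExpr (minimum count 10, minimum total 15), scaled by TMM and tested on the whole table with edgeR 4.0.16 (glmQLFit with robust = TRUE, then glmQLFTest, two-sided, without covariates, Benjamini-Hochberg over 14671 genes) in R 4.3.3. The thresholds were an adjusted p of 0.05 and a fold change of 1.5. The biological coefficient of variation was 0.0468. The naming rule took all 10 genes, and of each list up to 4 genes with an adjusted p under 0.05, a mean of at least 1 CPM and the largest changes, with Il1rl1, Il1rap and Sigirr. Alternatives were DESeq2 1.42.0, limma-voom (limma 3.58.1), DESeq2 size factors, no and a stricter filter, a replicate block, a test against the fold change threshold, each library left out, and the longest transcript as gene length. The fit was tested on simulated data. Protein sequences were not analysed here. No replicates were alike within sampling noise (chi-square 2.64 to 3.67 per gene), so each counted once.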

Additional observations from a re-analysis of the deposited data

How the results depend on the processing

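In every other fit but the test against the fold change threshold, Irak2, Traf4 and Traf1 stayed higher with an adjusted p under 0.05, and Traf6, Myd88 and Irak4 stayed short of it with 1 sign throughout. With all genes tested, 113 rather than 714 passed the test against the fold change threshold, and 0 of the 10 genes and 0 of the pathway genes did, where 1 of each was past both thresholds in edgeR. In DESeq2 0 of the 10 genes were past both thresholds, while 4 had an adjusted p under 0.05. With 1 library left out, 3 to 5 of the 10 genes had an adjusted p under 0.05 and 0 to 1 were past both thresholds, against 11 to 13 and 1 to 2 of the pathway genes. Over all genes the counts were then 3366 to 3664 and 621 to 719. The 1 gene past both thresholds was Irak1bp1, higher, without control replicate 2, and Irak3 in the other cases that had 1. The cause of these differences was not tested. With the longest transcript as gene length the level of Traf1 in the control libraries was 211 rather than 105 TPM, still the highest, and Irak1 and Irak2 exchanged places in the order over all libraries, while Traf5 went from place 10 to 8. No alternative reversed a gene that had passed the test. The replicate numbers are shared between the groups, but deviations from the group means correlated by 0.0471, -0.0859 and 0.0426 for numbers 1, 2 and 3, and 2 of 6 libraries were closest to their own number, so the numbers were not taken as pairs. With the replicate block 5 of the 10 genes, 14 pathway genes and 3798 of all genes had an adjusted p under 0.05, and 666 of all genes, 1 of the 10 and 1 pathway gene were past both thresholds. The low counts of Irak3, Irak1bp1 and Traf5 limit what can be said of them.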
